A study of Mus musculus with 2 samples.

Results

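The T and NK cell genes described here are 39 named genes of T lymphocytes and natural killer (NK) cells. They were picked by lineage, but with earlier results of these data known. They comprise the CD3 chains, T cell surface proteins, signalling adaptors and kinases, transcription factors, cytokine receptors, and the receptors and granule proteins of killer cells. The platform annotation gave 36 of them at least 1 probe set of their own, 66 probe sets in all, among the 18193 genes with such a probe set. Lck, Tcf7 and Il2rg had none in the annotation used and were not analysed here.

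RNA came from KLS cells of mouse bone marrow, the lineage-negative, c-kit-positive, Sca-positive fraction that holds stem and multipotent progenitor cells. The wild type sample and the sample with the TIF1γ gene (Trim33) conditionally inactivated, labelled TIF1γ Δ/Δ and written Δ/Δ from here on, were each hybridised to 1 array. The sources used here do not name the promoter that drove the deletion, the age of the mice or how many mice each array stands for. With no replicates, every difference below compares 2 arrays, and no error or test between genotypes can be given. The brightest probe set of the targeted gene Trim33 read 379 for wild type and 172 for Δ/Δ cells (log2 -1.12), lower on the array labelled Δ/Δ but still above background there. Whether that probe set lies in the deleted part was not given.

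T cells arise in the thymus from bone marrow progenitors. Notch signals there switch on factors such as TCF-1, GATA3 and BCL11B, which start the T cell programme. Mature T cells carry an antigen receptor that signals through the CD3 chains, the kinases LCK and ZAP-70 and the adaptors LAT and SLP-76. NK cells lack that receptor and use CD94 and NKG2 family receptors, and both NK and cytotoxic T cells kill with perforin and granzymes. Multipotent progenitors can transcribe some lymphoid factors at a low level before commitment, called priming. The CD3, CD8 and granule genes are grouped here as genes of mature cells, which does not mean that progenitors lack their RNA.

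A gene was taken as measured on an array when its probe set reached the floor, the median signal over probe sets other than controls (14.4 for wild type, 11.7 for Δ/Δ). On the wild type array 23 of the 36 genes (63.9%) reached it, against 60.9% of all genes. On the Δ/Δ array 13 of 36 (36.1%) did, against 60.5% of all genes. All 13 were also measured on the wild type array, so 10 were measured on the wild type array only and none on the Δ/Δ array only. For all genes measured on the Δ/Δ array, 5.90% lay below the wild type floor.

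The 13 genes under the floor on both arrays were Cd3e, Cd4, Cd5, Cd6, Cd7, Id4, Eomes, Tbx21, Il2ra, Il2rb, Klrk1, Ncr1 and Gzmk. Their signals ranged from 1.48 to 13.7 in wild type and from 0.144 to 10.3 in Δ/Δ. No fold was computed for them, since low MAS5 values have no dependable order. They include the CD4 coreceptor, T-bet (Tbx21) and Eomes, the factors of effector T and NK cells, the interleukin-2 receptor chains Il2ra and Il2rb, and the NK receptor NKp46 (Ncr1).

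**Figure D1:**
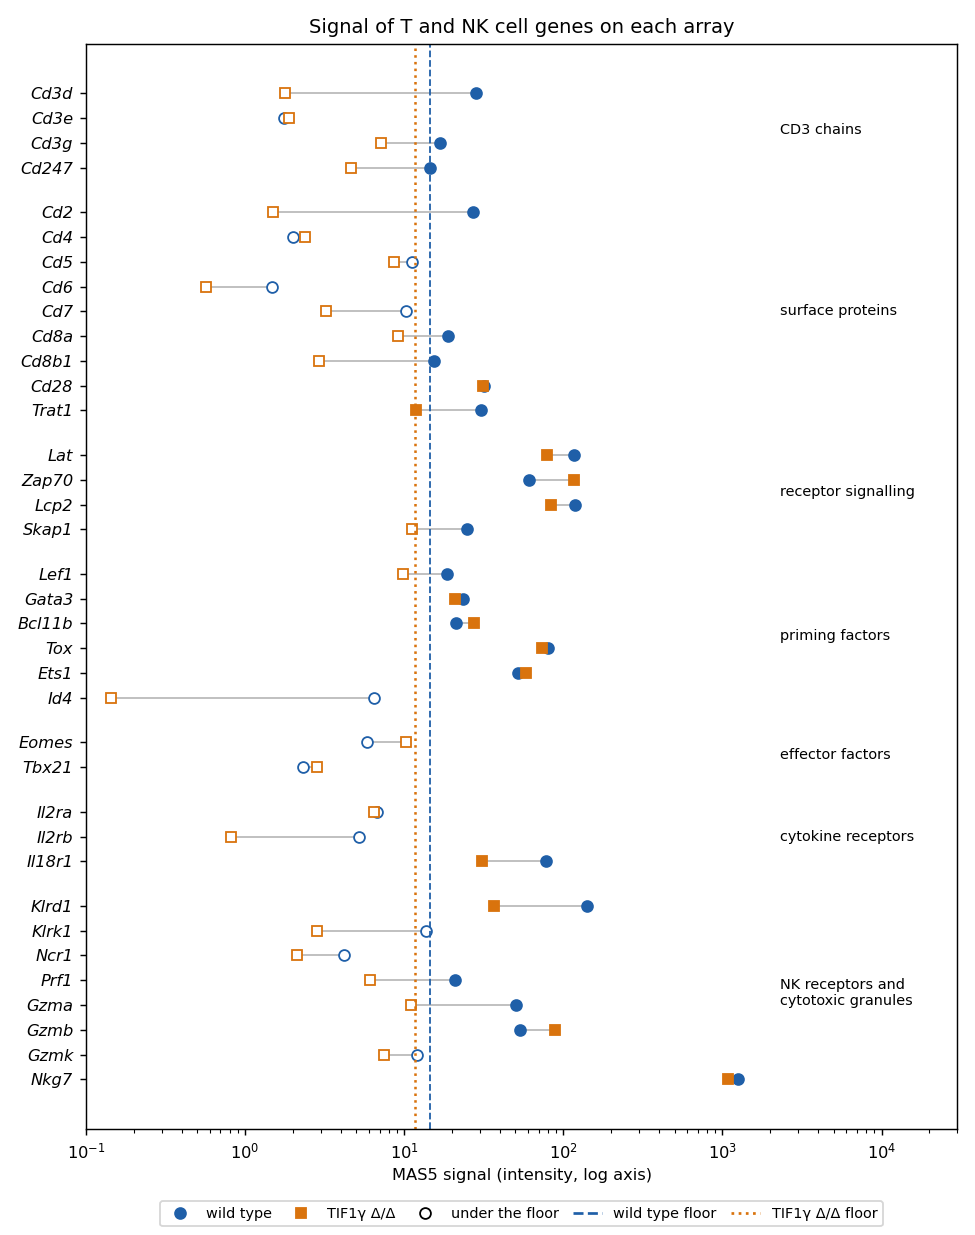
MAS5 signal (x axis, log scale) of the 36 genes with a probe set on the wild type array (circles) and the Δ/Δ array (squares), grouped by role, with open symbols under the floor of that array. The CD3 chains all lie under the Δ/Δ floor of 11.7, while Nkg7 lies at 1249 and 1089.7.

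Of the 23 measured genes, 7 had a Δ/Δ signal at least 2-fold lower and none had one at least 2-fold higher. Over all 11724 genes measured on at least 1 array, 6.01% were at least 2-fold lower and 2.53% at least 2-fold higher, against 30.4% lower among these 23. The 7 were Cd3d, Cd2, Trat1, Skap1, Il18r1, Klrd1 and Gzma. Only Klrd1, Il18r1 and Trat1 were measured on both arrays, and 4.65% of all genes measured on both were at least 2-fold lower. The other 4 folds are lower limits, set by the floor. The 10 genes measured on the wild type array only can give nothing but a lower value, so the median over all 23 (log2 -0.51, against 0.00023 over all 11724 genes) is set in part by the floor. Over the 13 genes measured on both arrays the median was -0.14, with 9 below 0 and 4 above, against 0.044 over all genes measured on both. The count of 7 became 4 with quantile scaling, 2 with a floor raised to the 65th percentile, and 1, Klrd1, with a pseudocount of 32.

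Most of the genes that left the measured range were dim on the wild type array. Of the 23, 11 had a wild type signal under 2 times the floor, and 9 of these 11 were under the floor on the Δ/Δ array. The same held for 33.7% of the 1673 genes of that signal range. The pair that stayed measured, Gata3 and Bcl11b, are transcription factors, and the 9 that did not comprise Lef1 and 8 genes of mature cells. For Bcl11b this depends on the probe set taken, since another one went from 26.0 to 2.54, under the floor. Of the 12 genes at 2 times the floor or more, 1, Gzma, was under the floor on the Δ/Δ array, against 1.54% of all genes in that range.

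**Figure D2:**
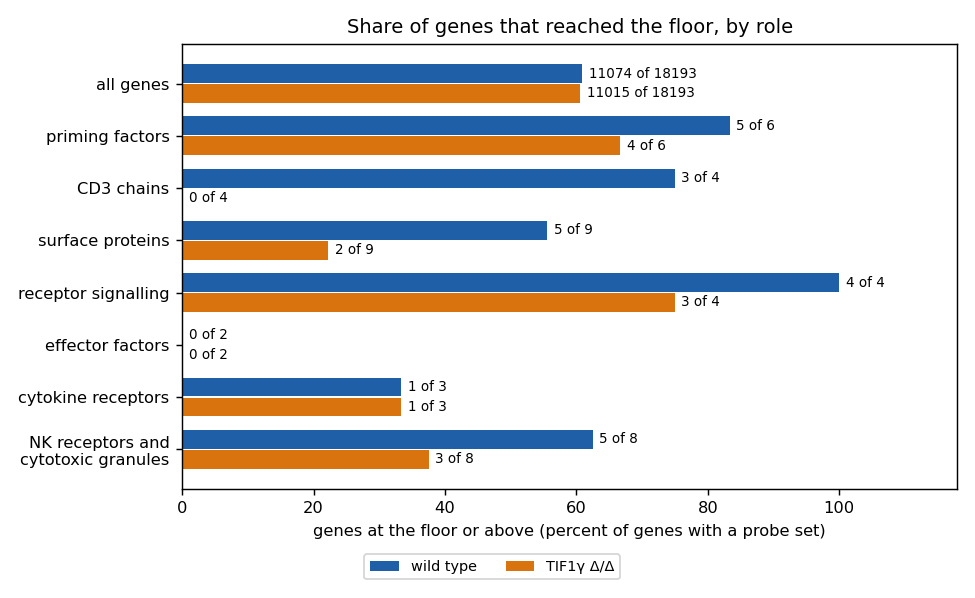
Percent of genes with a probe set that reached the floor (x axis), for all genes and for each role of T and NK cell genes, on the wild type array (blue) and the Δ/Δ array (orange), with counts at the bars. The share for all genes was 60.9% and 60.5%, whereas the CD3 chains went from 3 of 4 to 0 of 4.

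None of the 5 measured priming factors was 2-fold apart by its representing probe set. Over all measured genes 6.01% were at least 2-fold lower and 2.53% at least 2-fold higher, so 0 of 5 is near those shares. Of the 6 priming factors with a probe set, 5 were measured in wild type and 4 on the Δ/Δ array. Tox, an HMG-box factor needed for CD4 T cell and innate lymphoid development, gave 80.5 and 73.3 (log2 -0.11). A second Tox probe set gave 37.0 and 26.6 (log2 -0.45), and the third reached the floor on the Δ/Δ array alone, at 13.2 against 5.81. Gata3, the zinc finger factor of early T and type 2 helper cells, gave 23.5 and 20.9 (log2 -0.14).

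Ets1 and Bcl11b had probe sets that disagreed. For Ets1, a factor of T, B and NK cell development, the brightest gave 52.2 and 58.6 (log2 0.19) and a second gave 27.0 and 48.9 (log2 0.88). The third measured probe set of Ets1 went from 16.9 to 4.09, under the floor. For Bcl11b, the zinc finger factor that fixes T cell identity, the representing probe set gave 21.1 and 27.4 (log2 0.40), while another went from 26.0 to 2.54. The direction of Bcl11b therefore depends on the probe set taken.

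Lef1, of the same factor family as TCF-1, was measured on the wild type array only, at 18.6 against 9.82. That gives a bound of at least 1.57-fold lower. Id4, an inhibitor of basic helix-loop-helix factors, gave 6.44 and 0.144, both under the floor. The median of the 5 measured priming factors was -0.11. It was 0.11 with quantile scaling and 0.065 with loess scaling, so no direction can be given for the group.

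The mature cell genes that differed by 2-fold or more were all lower on the Δ/Δ array, most of them as floor bounds. Of the 27 with a probe set, taking in the CD3 chains, surface proteins, receptor signalling, effector factors, NK receptors and granule proteins, 17 were measured in wild type and 8 on the Δ/Δ array. Among the 17, 6 (35.3%) had a value lower by 2-fold or more and 0 a value higher by as much, against 6.01% and 2.53% of all measured genes. Of the 6, 4 are floor bounds, and the 9 genes measured on the wild type array only could not give a higher value. The median log2 difference was -0.53 over the 17 and -0.33 over the 8 measured on both arrays, of which 6 were below 0 and 2 above. The groups are small, 5 priming factors against 17 mature cell genes, and the difference between them was not tested. Of the 8 mature cell genes measured on both arrays, 2, Klrd1 and Trat1, were at least 2-fold lower, against 4.65% of all genes measured on both.

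**Figure D3:**
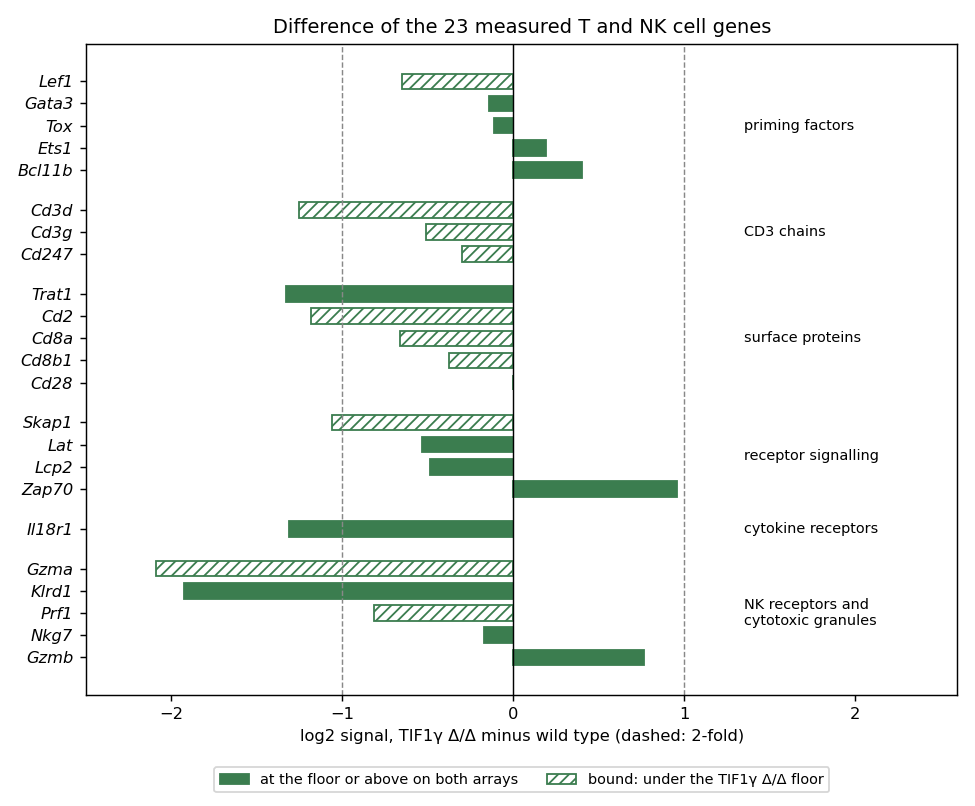
Difference in log2 signal, Δ/Δ minus wild type (x axis), of the 23 measured genes by role, as filled bars for genes measured on both arrays and hatched bars for bounds, with dashed lines at 2-fold. Gzma and Klrd1 reach furthest to the left, at -2.09 and -1.93, and Zap70 furthest to the right, at 0.96.

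The CD3 chains pair the T cell antigen receptor with its signalling machinery, and none reached the floor on the Δ/Δ array. Cd3d gave 28.2 in wild type and 1.79 in Δ/Δ cells, at least 2.38-fold lower. Cd3g gave 16.8 and 7.12 (at least 1.42-fold), and Cd247, the zeta chain, gave 14.6 and 4.63 (at least 1.23-fold). Both wild type values lay close to the floor, and Cd247 came to 0.020 with loess scaling, so that its direction is not settled. Cd3e gave 1.76 and 1.90. Cd3g, Cd3d and Cd3e follow each other on chromosome 9 with no other protein-coding gene between them, so the dim but measured Cd3d and Cd3g lie beside Cd3e, which was under the floor.

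Promoter windows were taken for the neighbours Cd3d and Cd3g, both under the floor on the Δ/Δ array alone, and for Gzma, Gzmb and Nkg7, granule genes that differed in direction or size. Each is the 250 bases before the RefSeq start, read 5′ to 3′ on the gene's strand in build GRCm38.p6. The windows are chr9:44981536-44981785 (+) for Cd3d, chr9:44980432-44980681 (-) for Cd3g, chr13:113100982-113101231 (-) for Gzma, chr14:56262335-56262584 (-) for Gzmb and chr7:43436888-43437137 (+) for Nkg7. Capitals mark matches, on either strand, to 4 short motifs of factor families found among these genes.
Cd3d: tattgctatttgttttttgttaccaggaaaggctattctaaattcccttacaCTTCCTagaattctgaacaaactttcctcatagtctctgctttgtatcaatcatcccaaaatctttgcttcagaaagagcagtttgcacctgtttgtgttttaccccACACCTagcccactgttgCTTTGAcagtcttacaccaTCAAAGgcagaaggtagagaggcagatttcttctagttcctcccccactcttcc
Cd3g: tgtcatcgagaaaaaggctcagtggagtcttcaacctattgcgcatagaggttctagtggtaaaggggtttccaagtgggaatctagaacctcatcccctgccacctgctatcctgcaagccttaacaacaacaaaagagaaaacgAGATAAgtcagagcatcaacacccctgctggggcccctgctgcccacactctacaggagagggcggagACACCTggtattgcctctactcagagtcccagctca
Gzma: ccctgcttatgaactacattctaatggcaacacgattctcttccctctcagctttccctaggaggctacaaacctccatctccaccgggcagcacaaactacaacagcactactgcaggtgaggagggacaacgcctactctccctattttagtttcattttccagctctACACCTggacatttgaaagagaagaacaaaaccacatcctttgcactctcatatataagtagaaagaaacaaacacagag
Gzmb: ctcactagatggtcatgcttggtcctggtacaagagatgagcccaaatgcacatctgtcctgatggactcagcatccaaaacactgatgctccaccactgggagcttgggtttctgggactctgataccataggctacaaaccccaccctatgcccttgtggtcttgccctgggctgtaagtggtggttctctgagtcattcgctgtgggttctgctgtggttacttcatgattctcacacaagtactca
Nkg7: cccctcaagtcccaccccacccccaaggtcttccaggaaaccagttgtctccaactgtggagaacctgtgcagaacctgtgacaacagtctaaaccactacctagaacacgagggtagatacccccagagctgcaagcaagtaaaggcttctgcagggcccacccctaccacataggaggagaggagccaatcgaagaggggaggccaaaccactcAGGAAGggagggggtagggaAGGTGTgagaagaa

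The motifs searched were AGATAA for GATA factors, AGGAAG for ETS factors, CTTTGA for TCF and LEF factors, and AGGTGT for T-box factors. No matches overlapped each other in these windows. Cd3d held an ETS match that begins 198 bases before the start, a T-box match at 91, and TCF/LEF matches at 73 and 54. Cd3g held a GATA match at 104 and a T-box match at 36. Gzma held a T-box match at 80, Nkg7 an ETS match at 34 and a T-box match at 14, and no match to these letters was found in the Gzmb window. Over the 38 windows of the 28 listed genes in the promoter table, the T-box letters occurred in 11, the ETS letters in 17, TCF/LEF in 7 and GATA in 2. The shares over all 32851 windows were 11.8%, 29.5%, 13.8% and 9.99% in the same order. Such matches are letters in a window, not measured binding, and the T-box genes Tbx21 and Eomes were themselves under the floor.

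Surface proteins of T cells were mostly near or under the floor. Cd2, an adhesion receptor of T and NK cells, gave 26.9 and 1.5 (at least 2.27-fold lower). The coreceptor chains Cd8a and Cd8b1 lie next to each other on chromosome 6. Cd8a gave 18.8 and 9.14 (at least 1.59-fold), and Cd8b1 gave 15.3 and 2.92 (at least 1.3-fold). A second measured Cd8a probe set went from 30.1 to 2.30. Trat1, an adaptor that binds the antigen receptor complex, gave 30.6 and 12.0 (log2 -1.33), the latter just above the floor, and its second probe set went from 15.0 to 4.02.

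Cd28, the costimulatory receptor of T cells, stood apart from these in value. Its signal was 31.9 in wild type and 31.3 on the Δ/Δ array (log2 -0.0030), and its second probe set gave 14.6 and 12.3 (log2 -0.22). The other surface genes, Cd4, Cd5, Cd6 and Cd7, lay under both floors, from 1.48 to 11.2 in wild type and from 0.565 to 8.61 in Δ/Δ cells.

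Genes of antigen receptor signalling were measured on both arrays, apart from Skap1, and went both ways. The adaptor Lat gave 117 and 79.4 (log2 -0.53). Lcp2, which encodes SLP-76 and also serves platelets and myeloid cells, gave 119 and 83.9 (log2 -0.48), although its second probe set gave 44.3 and 46.8 (log2 0.10). The kinase Zap70 gave 60.7 and 116 (log2 0.96, 1.95-fold), just short of 2-fold. Its other 2 probe sets were under the floor on both arrays, at 1.66 and 7.77 and at 12.9 and 4.16, so the higher value rests on 1 probe set. Skap1, an adaptor for integrin activation in T cells, gave 24.7 and 11.1 (at least 2.08-fold lower).

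Among the cytokine receptors only Il18r1, the interleukin-18 receptor chain, was measured. It gave 77.4 in wild type and 30.7 on the Δ/Δ array (log2 -1.31, 2.48-fold lower). Its log2 difference was -0.78 with a pseudocount of 32. Il2ra gave 6.75 and 6.43, and Il2rb gave 5.19 and 0.814.

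NK cell receptors and granule proteins included genes that were lower, close to equal and higher on the Δ/Δ array. Klrd1, which encodes CD94, gave 141 and 36.5 (log2 -1.93, 3.80-fold lower), and was at least 2-fold lower in each of the 9 other settings tried of scaling, floor, probe set and pseudocount. Klrk1, the NKG2D gene beside it on chromosome 6, gave 13.7 and 2.85, both under the floor. Ncr1 gave 4.21 and 2.11.

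Gzma, a granzyme of NK and cytotoxic T cells, gave 50.5 and 11.03, at least 4.26-fold lower. Gzmk, its neighbour on chromosome 13, gave 12.1 and 7.46. Gzmb, the granzyme of activated killer cells, went the other way, at 53.3 and 89.1 (log2 0.76, 1.70-fold). Prf1, which encodes the pore-forming perforin, gave 20.8 and 6.10 (at least 1.76-fold lower), with a second probe set at 6.45 and 10.2. Nkg7, a granule membrane protein, gave 1249 and 1089.7 (log2 -0.17), far above both floors, so its signal did not follow that of Gzma or Klrd1. With probe sets marked as shared between transcripts left out, neither Gzma nor Prf1 had a measured value.

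**Figure D4:**
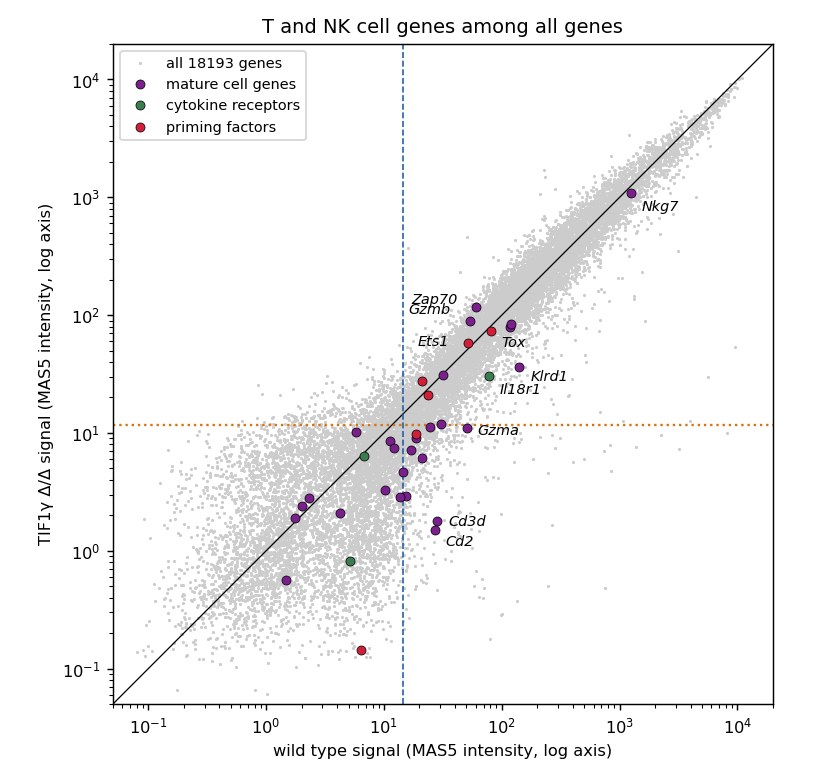
Signal on the Δ/Δ array (y axis) against the wild type array (x axis), both MAS5 intensities on log axes, for all 18193 genes in grey and the T and NK cell genes in colour, with the floors as broken lines. Klrd1 and Il18r1 lie below the diagonal with both signals above the floors, Zap70 and Gzmb lie above it, and Cd3d and Cd2 lie under the Δ/Δ floor.

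Other genes of the same pathways were read from a separate list of 71 genes. Of the 51 measured, 7 (13.7%) were at least 2-fold lower and 3 at least 2-fold higher, against 6.01% and 2.53% of all measured genes, at a median of -0.071. Of the 44 measured on both arrays 4 were at least 2-fold lower, and their median was 0.025, so no direction can be given for the list. Among 15 measured genes of the early T cell programme, Rag1, a recombinase gene, was at least 2-fold lower (44.6 to 20.6, log2 -1.09). The chromatin organiser Satb1 (353 to 775, log2 1.16) and the CD8 lineage factor Runx3 (125 to 272, log2 1.14) were at least 2-fold higher. Of 4 measured Satb1 probe sets, 3 were higher and 1 lower, and the Runx3 value rests on 1 measured probe set of 2. None of the 14 measured genes of further antigen receptor signalling was 2-fold apart. Ptprc (CD45) gave 1535 and 1618, and the adaptor Sla gave 784 and 806.

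Of 14 further measured genes of mature T and NK cells, 4 were at least 2-fold lower and 1 at least 2-fold higher. Over all measured genes those shares were 6.01% and 2.53%. Of the 4, 3 were measured on the wild type array only and could not come out higher. Of the 11 measured on both arrays, 1 was at least 2-fold lower, against 4.65% of all genes measured on both. Of these 11, 9 were below 0 and 2 above. The inhibitory receptor Klrg1 (39.6 to 9.35) was at least 3.34-fold and Klrc1, the NKG2A partner of CD94 (30.8 to 4.36), at least 2.6-fold lower. The chemokine Ccl5 went from 120 to 47.7 (log2 -1.31). The lymph node homing receptor Ccr7, named after its values were seen, went from 24.6 to 4.54 (at least 2.08-fold), and the SLAM family receptor Cd244a was higher (245 to 562, log2 1.22). Thus Klrd1 and Klrc1, which form 1 heterodimer, were both at least 2-fold lower. The Klrc1 value is a floor bound from 1 measured probe set of 2. Of the 8 NK and innate lymphoid factors, all measured on both arrays, 5 were below 0 and 3 above, at a median of -0.069. Id2 (1046 to 207, log2 -2.31) and Rora (34.6 to 16.4, log2 -1.05) were at least 2-fold lower and none was at least 2-fold higher. Among all genes measured on both arrays, 4.65% were at least 2-fold lower. The Id2 value rests on 1 measured probe set of 3, while all 6 measured Rora probe sets were lower.

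The sorted identity and other cell types were read on the same arrays. All 10 stem and progenitor markers with a probe set were measured on both arrays, and their summed signal was 4709.7 in wild type and 6124 on the Δ/Δ array, with Cd34 at 1398 and 2326 and Meis1 at 715 and 806. All 9 neutrophil markers were at least 2-fold lower, and their sum went from 30877 to 134 (S100a8 9568 to 53.6, Ngp 5665 to 29.7). All 10 macrophage markers were at least 2-fold lower, with sums of 3743 and 262 (Csf1r 684 to 91.1, Cd163 156 to 75.8), as were all 6 measured erythroid markers, with sums of 1437 and 326 (Klf1 496 to 149, Ermap 437 to 126). All 6 measured B cell markers had a log2 difference below 0, but 4 of them were measured on the wild type array only and could only be negative. Of the 6, 2 were at least 2-fold lower, against 6.01% of all measured genes. The B cell sums were 664 and 213, with Cd79b at 182 and 128 (log2 -0.48) and Vpreb1 at 269 and 43.1 (log2 -2.62). Of 8 measured dendritic cell markers 6 were below 0, and 5 of these were at least 2-fold lower. The dendritic cell sums were 7806 and 2142, with H2-Aa lower (4452 to 1013) and Flt3 slightly higher (464 to 534). Flt3 was also listed as a stem and progenitor marker and counts in both sums, so it does not single out dendritic cells.

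The T cell markers Cd3d, Cd3e, Cd3g, Cd2 and Cd5 summed to 84.9 in wild type and 20.9 on the Δ/Δ array. Of these 5 genes, 3 reached the floor in wild type and 0 on the Δ/Δ array, so the latter sum holds only signals under the floor. The 5 NK cell markers Klrd1, Ncr1, Prf1, Gzma and Nkg7 summed to 1465 and 1145, most of it Nkg7, and the 4 without Nkg7 to 216 and 55.7. Of those 4, only Klrd1 reached the floor on the Δ/Δ array. The T and NK cell markers are genes already described above, not a separate reading. No marker was listed at 0. Markers of neutrophils, macrophages and erythroid cells were lower on the same array as the 7 lower T and NK cell genes, and their part in the result was not tested. In RNA from a sorted population, fewer cells of a type and less RNA per cell cannot be told apart.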

How the data were processed

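Total RNA of KLS cells was hybridised to 2 Affymetrix arrays, 1 per genotype, after two-cycle biotin labelling, per the labels' protocols. The authors deposited 1 linear intensity per probe set, and the submitters' processing notes name MAS5. After trimming 2% at each end, the mean was 100 on both arrays. The number of arrays limits the precision.

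The 64 control probe sets were left out. A gene was represented by the single-gene probe set whose log2 signal, averaged over both arrays, was highest, with symbols updated to the RefSeq annotation of GRCm38.p6. Log2 differences are TIF1γ Δ/Δ minus wild type, less the median of probe sets measured on both arrays (-0.024). A signal under the floor on 1 array was set to the floor, and the fold is then a bound. Because the floors differ, a gene under the floor on 1 array needs a signal of 23.7 (wild type) or 28.4 (TIF1γ Δ/Δ) to reach 2-fold. There is no test, since each group held 1 array.

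Members and lists were chosen with earlier results of these data known. All members are named. Of other pathway genes the text names up to 4 per role with the largest differences of at least 2-fold, or else the 2 brightest, and of cell type markers the 2 brightest. The procedure was tested on simulated data, with known differences put only into genes of bright wild type signal. That test does not cover dim genes or floor bounds. Alternatives covered scaling, floor, probe set rule, pseudocount, threshold and group membership. Python 3.11.15, numpy 2.4.6, pandas 2.3.3, statsmodels 0.14.6 and matplotlib 3.10.9 were used.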

Additional observations from a re-analysis of the deposited data

How the results depend on the processing

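Results of the T and NK cell genes were recomputed under other settings. The count of genes at least 2-fold lower, 7, was 4 with quantile scaling, 11 and 2 with the floor at the 40th and 65th percentile, 16 without a floor, 1 with a pseudocount of 32 and 2 at 3-fold. Limited to genes measured on both arrays, a setting added after the data were seen, it was 3. The count of genes at least 2-fold higher, 0, was 1 without a floor (Zap70) and 2 at 1.5-fold. The median of the priming factors (-0.11) was 0.1104 with quantile scaling, 0.06521 with loess scaling and 0.03954 over genes measured on both arrays, the last because Lef1 drops out. The count reaching the wild type floor, 23, was 10 with the 65th percentile, and that reaching the TIF1γ Δ/Δ floor, 13, was 21 and 8 with the 40th and 65th. Fewer or more genes pass a changed floor by construction, and for scaling and the pseudocount the cause was not tested. The share of genes at least 2-fold lower was 4.35% of the 23 against 2.21% of all genes with the pseudocount, and 44.4% of 36 against 15.3% without a floor. Medians of the measured T and NK cell genes and of the mature cell genes among them stayed below 0 in the alternatives run, from -0.84 to -0.14 and from -0.96 to -0.33. No single gene at least 2-fold apart turned its direction in the 9 settings of scaling, floor, probe set and pseudocount. No paired analysis was possible because each genotype had 1 array.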

Other observations

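Probe sets annotated to T cell receptor variable segments belonged to no list above and were looked at after the data were seen. The 16 probe sets stand for 9 segment genes, which are members of large, similar families, so that cross-hybridisation between them is possible and the gene names are uncertain. On the wild type array 9 reached the floor, and on the TIF1γ Δ/Δ array 6. All 9 had a negative log2 difference, from -2.37 to -0.061 with a median of -1.27, and 6 were at least 2-fold lower. The share over all measured genes was 6.01%, counted with 1 probe set per gene, whereas Trav9d-3 and Trgv4 each gave 2 of the 9 probe sets. Of the 9, 3 were measured on the wild type array only, so that their values are bounds that could only be negative. The measured Trbv1 probe set gave 147 in wild type and 27.8 in TIF1γ Δ/Δ cells. The 2 measured Trgv4 probe sets gave 61.5 and 34.6, and 59.7 and 20.7. Trgv1 gave 21.9 and 20.6.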
